A study of Drosophila melanogaster with 4 samples.

Results

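The vacuolar ATPase (V-ATPase) subunit genes of Drosophila melanogaster were described by the peaks that tagged Eip78C gave at their promoters. Members were the protein-coding genes of the Ensembl dm6 annotation whose symbol is Vha followed by a digit, A, P or S. This gave 29 genes of the 13968 protein-coding genes annotated on the assembled chromosomes. The rule reads gene names only. It leaves out the VhaM genes, which are given separately below. Eip78C belongs to the Rev-erb-related nuclear receptors and is a gene switched on by ecdysone, the moulting hormone. Its binding was mapped by chromatin immunoprecipitation and sequencing (ChIP-seq) in whole animals at the white prepupa stage, the onset of puparium formation, with 4 biological replicates. Males and females were pooled, their age is given as unknown, and all came from a transgenic line that stably expresses Eip78C with a C-terminal GFP (green fluorescent protein) tag. The 4 replicates form 1 group, the descriptions name an anti-GFP antibody while the antibody field names Eip78C, and no control sample was among the samples analysed here.

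The V-ATPase is a rotary proton pump of lysosomes, endosomes, secretory vesicles and, in some epithelia, the plasma membrane. Its cytosolic V1 part (subunits A to H) hydrolyses ATP, and its membrane V0 part (a, c, c'' and d, with small subunits) carries protons through a ring of c subunits. The accessory subunit Ac45 assists assembly. In flies most subunits are encoded by 1 gene used widely and, often, by further paralogues known mainly from the testis or other single tissues. From such background knowledge, not from the files but with earlier results of these data known, 13 members were placed as general, 13 as tissue-restricted, and 3 (Vha68-1, Vha36-3 and Vha100-1) were given no class.

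Each deposited list gives peaks with a summit, the base of highest signal, and a signal score, which is the depositors' own and has no stated scale. Scores and ranks (rank 1 is the highest score) are comparable only within 1 list. The joint list, called optimal by the depositors, held 8282 peaks. The list of each replicate held 30000 peaks and includes background, so the 8282 strongest peaks of each replicate, its top list, were used beside the optimal list. The headers of the deposited files name the lists of replicates 2, 3 and 4 and the pooled list as sources of the optimal list, and not that of replicate 1. No read counts were given, so the depth behind each list is unknown.

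Of the 29 V-ATPase genes, 6 had an optimal summit within 1 kb of a transcription start site (TSS). That is 20.7% of the members, beside 22.0% of all protein-coding genes, so as a set the V-ATPase genes stood near the background. The 6 genes were Vha100-2, Vha14-1, Vha36-1, Vha16-1, Vha44 and Vha13. All belonged to the general class, which had 6 of 13 genes (46.2%) with a summit, while the tissue-restricted class had 0 of 13. By an approximate limit of 3 counts for counting error alone, 0 of 13 allows a share of up to 23.1%. This limit is rough for 13 genes. It lies too near the 22.0% of all protein-coding genes to tell whether the class stood below that share. The 3 genes without a class had none. When each summit was given only to its nearest TSS, the general count fell to 3 of 13, beside 17.3% of all protein-coding genes, and the restricted count stayed at 0. The general class holds 1 gene for each of the 13 subunits distinguished here. The 6 genes, all general, therefore encode 6 different subunits (D, F, C, G, a and c). For the same reason, no more than 1 paralogue had an optimal summit in any of the 8 subunits with several genes. In the top list of each replicate subunit c had 2, Vha16-1 and Vha16-5.

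The replicates gave similar counts. In replicates 1 to 4 the top lists gave 6, 8, 7 and 7 members with such a summit, a mean of 7.0 ± 0.816 (SD, n = 4). Beside these stood 25.2%, 21.1%, 24.5% and 26.9% of all protein-coding genes in replicates 1 to 4, and 20.7%, 27.6%, 24.1% and 24.1% of members. General genes counted 5, 7, 6 and 6 of 13, and tissue-restricted genes 1 of 13 in each replicate, which was Vha16-5 every time. The lowest general count, 5, lay above the highest restricted count, 1. The 4 counts of a class cover the same 13 genes, so they show how far the lists repeat and not a spread between genes.

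**Figure D1:**
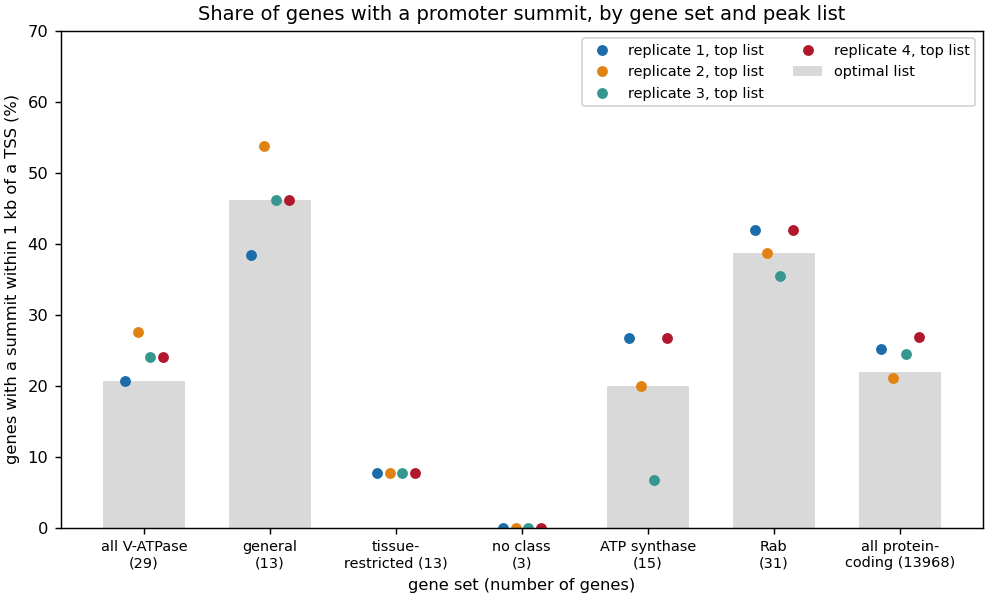
Share of genes (%) with a summit within 1 kb of a TSS, by gene set; bars show the optimal list and points the top list of each replicate. General V-ATPase genes lie between 38.5% and 53.8% in the replicates, tissue-restricted ones at 7.69% in each, and all protein-coding genes between 21.1% and 26.9%.

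Among the V1 genes, 4 of 13 had an optimal summit, beside 22.0% of all protein-coding genes. Vha36-1 encodes subunit D, part of the central rotor stalk. Its strongest summit, at 2R:15541378, had rank 2245 and score 315 in the optimal list and lay 57 bp upstream of the TSS. The ranks in replicates 1 to 4 were 4464, 2146, 4525 and 1315. The scores were 46.3, 73.1, 50.5 and 134. Replicates 2 and 4 ranked it higher than replicates 1 and 3 did. The summit lay 15 bp upstream of the start of CG8187 as well, the gene that faces it.

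Vha44 encodes subunit C, which joins V1 to V0 and is released when the pump comes apart. Its summit, at 2R:16336679, had rank 5376 and score 153 and lay 42 bp upstream of the TSS. Replicates 1 to 4 gave ranks of 6705, 4804, 8624 and 4672, so replicate 3 lay just outside its top list. The same summit lay 81 bp upstream of a start of Hmgs, which encodes HMG-CoA synthase, and inside a 5′ UTR of another Hmgs transcript.

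Vha13 encodes subunit G of the outer stalk. Its summit, at 3R:19644406, had rank 7187 and score 115 and lay 20 bp upstream of the TSS. The ranks in replicates 1 to 4 were 9590, 7134, 5232 and 9229. It stood inside the top list in replicates 2 and 3 and outside it in replicates 1 and 4. Nup58, a nuclear pore gene, started 620 bp from that summit. Past the 3′ end of Vha13, 3 further optimal summits had ranks 7956, 3130 and 6557, of which those at 3130 and 6557 lay within subdued.

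Vha14-1 encodes subunit F of the rotor stalk. Its summit ranked far higher, at 749 with score 627, and at 742, 621, 1015 and 707 in replicates 1 to 4, with scores of 145, 154, 137 and 196. However, this summit, at 2R:15679232, lay 852 bp downstream of the Vha14-1 TSS, beyond the 3′ end of the 659 bp gene. It was 276 bp upstream of Gmppa, a gene of GDP-mannose metabolism. With a window of 500 bp Vha14-1 had no summit.

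The other general V1 genes had no optimal summit. Vha55, which encodes the B subunit, had its strongest peak within 1 kb of a TSS at rank 12641 in the pooled list, but at 10841, 3184, 3577 and 4083 in replicates 1 to 4. The pooled peak lay 832 bp downstream of a TSS, in an intron of Vha55. Vha68-2, which encodes the catalytic A subunit, had ranks of 20741, 9998, 8478 and 11881 in replicates 1 to 4 and 18353 in the pooled list, outside the top list each time. Vha26 (subunit E) had a peak in the list of replicate 1 alone, at rank 11826. VhaSFD (subunit H) had none in any list. Past its 3′ end, 1 optimal summit in the neighbour Cyt-c-p, a cytochrome c gene, had rank 419. That peak, 1994 bp past the gene, had ranks 195, 729, 414 and 474 in replicates 1 to 4.

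Among the V0 genes, 2 of 14 had an optimal summit, beside the same 22.0% of all protein-coding genes. The difference between the V1 and V0 counts was not tested. Vha100-2 encodes a form of subunit a, the membrane subunit that forms the proton channels with the c ring. It had the strongest peak of the family by far, at rank 80 of 8282 with score 1550. The summit, at 3R:18397229, lay 301 bp upstream of the inner of the gene's 2 starts. Replicates 1 to 4 ranked it 81, 71, 101 and 92 with scores of 331, 393, 363 and 462, a mean rank of 86.25 ± 13 (SD, n = 4). The 4 summits lay within 26 bp. Vti1b, which encodes a SNARE protein of vesicle fusion, starts between this TSS and the summit, which lay 234 bp downstream of the Vti1b start in its 5′ UTR and nearer to it than to Vha100-2. A second peak in an intron of Vha100-2 had ranks 2508, 3818, 2850 and 2896 in replicates 1 to 4. In the pooled list the nearest peak in that intron had rank 12924.

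Vha16-1 encodes the c subunit of the proton ring. Its promoter summit, at 2R:6633225, had rank 4303 and score 187 and lay 135 bp upstream of the outer TSS. The ranks in replicates 1 to 4 were 5429, 4080, 5187 and 2624, inside the top list each time, and the scores were 39.9, 44.5, 45.0 and 86.3. It was the single member of the 6 whose summit lay within 1 kb of no other gene. In replicates 2, 3 and 4 the summit lay 144, 58 and 123 bp upstream, and in replicate 1 it lay 150 bp downstream, with the next peak upstream at rank 6641. Vha16-1 held 2 more optimal summits in its introns, at ranks 4203 and 5334.

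The remaining general V0 and accessory genes had weak peaks or none. VhaPPA1-1, which encodes c'', had ranks of 18448, 16183 and 12165 in replicates 1, 3 and 4, no peak in replicate 2, and rank 17164 in the pooled list. VhaAC39-1, which encodes d, had ranks of 9211 and 28408 in replicates 1 and 4 and no peak elsewhere. VhaAC45, the accessory Ac45 gene, had no peak within 1 kb of its TSS in any list.

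**Figure D2:**
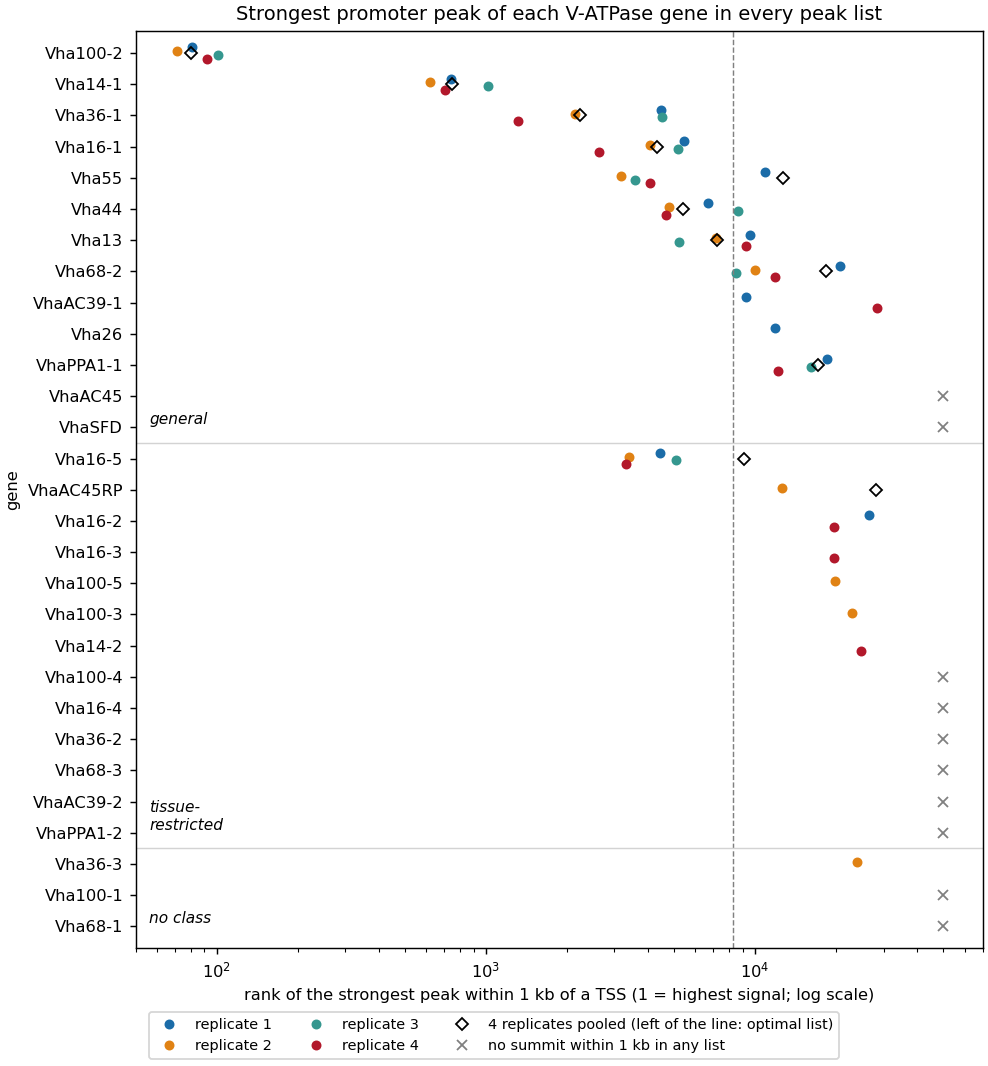
Rank of the highest-scoring peak near a TSS (within 1 kb) for all 29 V-ATPase genes (log axis, rank 1 has the highest score); circles are the replicates, open diamonds the list of the 4 replicates pooled, crosses genes with no such peak in any list, and the dashed line is rank 8282. A replicate list without a peak has no circle; Vha100-2 lies between ranks 71 and 101, and 12 of the 13 tissue-restricted genes have no point left of the line.

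Ranks of different genes come from the same replicate list, so their order can be read within each replicate. The order of the optimal list, Vha100-2, Vha14-1, Vha36-1, Vha16-1, Vha44 and Vha13, held in all 4 replicates for 14 of the 15 pairs, and in 3 of 4 for Vha44 against Vha13. The optimal peaks come from the 4 replicates pooled, so the 2 orders are not independent. The spread between replicates was wide at the lower ranks. Vha100-2 (71 to 101) and Vha14-1 (621 to 1015) overlapped neither each other nor the rest. Vha36-1 (1315 to 4525) overlapped Vha16-1 (2624 to 5429), which overlapped Vha44 (4672 to 8624) and Vha13 (5232 to 9590), and these overlapped each other. Vha36-1 overlapped neither Vha44 nor Vha13. The mean rank was 771.2 ± 170 for Vha14-1, 3112 ± 1630 for Vha36-1, 4330 ± 1280 for Vha16-1, 6201 ± 1860 for Vha44 and 7796 ± 2020 for Vha13 (SD, n = 4). The median rank of the strongest summit was 3274 over the 6 members and 3113 over the 3078 protein-coding genes with a summit. The weakest members stood just inside the list: Vha13 was at 7187, and the nearest member outside was Vha16-5, at rank 9063 in the pooled list. That pooled peak lay 888 bp downstream of the Vha16-5 TSS, past the 3′ end of the gene.

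The tissue-restricted genes are paralogues of the same subunits. Of the 13, 6 had no peak within 1 kb of a TSS in any list: Vha68-3 (A), Vha36-2 (D), Vha100-4 (a), Vha16-4 (c), VhaPPA1-2 (c'') and VhaAC39-2 (d). Another 6 had a peak in 1 or 2 replicates, below the top list. These were Vha14-2 (F) at rank 24831 in replicate 4, Vha100-3 (a) at 22865 and Vha100-5 (a) at 19755 in replicate 2, Vha16-2 (c) at 26600 in replicate 1 and 19561 in replicate 4, Vha16-3 (c) with the same replicate 4 peak, and VhaAC45RP (Ac45) at 12627 in replicate 2. The remaining gene was Vha16-5. Optimal summits within 2 kb of a gene but not near its TSS occurred in this class too: VhaAC45RP had 2 past its 3′ end, 401 and 1261 bp away at ranks 2809 and 6193, and Vha100-3 had 1, 1812 bp past its 3′ end at rank 3498 in an intron of sano. Of the genes with no class, Vha36-3 had rank 23829 in replicate 2 and an optimal summit 1769 bp upstream at rank 6343, and Vha100-1 and Vha68-1 had no peak. Restricted genes also stand beside general ones in the genome: Vha68-3 starts past the 3′ end of Vha68-2 and Vha100-4 past that of Vha100-2, the gene with the strongest peak.

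Vha16-5 (c) and Vha55 (B) had promoter peaks in the replicates that the pooled list lacks. At Vha16-5 the strongest peak had scores of 46.6, 51.6, 45.6 and 72.0 and ranks of 4424, 3406, 5101 and 3326 in replicates 1 to 4, a mean of 4064 ± 853 (SD, n = 4), which puts it among the ranks of Vha36-1 and Vha16-1. Its summits fell within 29 bp, 260 to 289 bp upstream of Vha16-5 and 13 to 42 bp upstream of CG12299, the gene on the other side. At Vha55, replicates 2, 3 and 4 had summits 61, 33 and 13 bp upstream of the TSS nearest to Snx3, a sorting nexin gene. The peak of rank 10841 in replicate 1 lay elsewhere, 547 bp downstream in an intron. No peak of the pooled list overlapped the replicate peaks of either promoter by 1 bp. The same held for 279 of the 2908 protein-coding genes (9.59%) that had a summit in the top list of at least 3 of the 4 replicates, so the absence is not particular to these genes. Why the pooled list lacks these peaks was not tested. Counted by at least 3 of 4 top lists, 7 of 29 members had a summit, 6 general and 1 restricted, beside 20.8% of all protein-coding genes. Vha55 and Vha16-5 then entered and Vha13 left.

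The promoter stretches under these peaks are shown to let the summit positions be read against the sequence. They come from the RefSeq dm6 assembly, 5′ to 3′ on the strand of the V-ATPase gene, which is the minus strand in all 4. Single capitals mark summit bases: that of the optimal list for Vha100-2 and Vha13, those of replicates 2, 3 and 4 for Vha55, and those of the 4 replicates for Vha16-5. The Vha100-2 stretch is chr3R:18397215-18397244, inside the 5′ UTR of Vti1b. The Vha13 stretch is chr3R:19644387-19644536, the 150 bases before its TSS. The Vha55 stretch is chr3R:12627830-12628030, all 201 bases between the starts of Vha55 and Snx3. The Vha16-5 stretch is chr2L:10737145-10737344, which begins next to the start of CG12299 and holds 200 of the 301 bases between both genes.
Vha100-2: ttattgctctcacagCtattgttcttattg
Vha13: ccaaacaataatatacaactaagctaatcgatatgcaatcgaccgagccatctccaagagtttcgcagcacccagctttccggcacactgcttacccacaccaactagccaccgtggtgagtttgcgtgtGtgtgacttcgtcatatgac
Vha55: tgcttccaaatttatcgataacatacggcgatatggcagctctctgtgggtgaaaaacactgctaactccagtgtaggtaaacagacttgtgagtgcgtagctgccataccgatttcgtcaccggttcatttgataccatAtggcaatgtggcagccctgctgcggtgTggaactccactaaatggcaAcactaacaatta
Vha16-5: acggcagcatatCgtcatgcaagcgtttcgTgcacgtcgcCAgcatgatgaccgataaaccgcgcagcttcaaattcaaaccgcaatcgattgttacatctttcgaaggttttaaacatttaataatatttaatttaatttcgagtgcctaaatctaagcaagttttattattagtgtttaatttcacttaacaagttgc
In the Vha55 stretch the summits lie towards the 3′ end, next to Vha55. In the Vha16-5 stretch they lie at the 5′ end, next to CG12299. The single match to the motifs searched is a DRE (TATCGATA) at chr3R:12628011-12628018, near the Snx3 end.

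Most of these summits lay within 1 kb of the TSS of a second gene. Of the 6 optimal summits at members, 5 lay upstream of the member's TSS, beside 78.0% of all genes with a summit, and the median distance was 96 bp against 219 bp. A summit within 1 kb of another gene as well was found at 5 of the 6 (83.3%), beside 49.4% of all 3078 genes with a summit. The member's own TSS was the nearest protein-coding TSS at 3 of 6 (Vha13, Vha16-1 and Vha44), beside 75.8%. At Vha100-2, Vha14-1 and Vha36-1, which hold the 3 strongest peaks, the nearest TSS belonged to Vti1b, Gmppa and CG8187. The summit position lay within 79 bp over the 4 replicates at 5 of the 6 members with an optimal summit. It spread over 26 bp at Vha100-2, 45 bp at Vha14-1, 52 bp at Vha44, 53 bp at Vha36-1 and 79 bp at Vha13. At Vha16-1 it spread over 294 bp, where replicate 1 took the other side of the TSS. Among members without an optimal summit, the strongest summits spread over 29 bp at Vha16-5, 736 bp at Vha55 and 744 bp at Vha68-2. Which gene of a pair the peak serves cannot be read from peak lists.

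**Figure D3:**
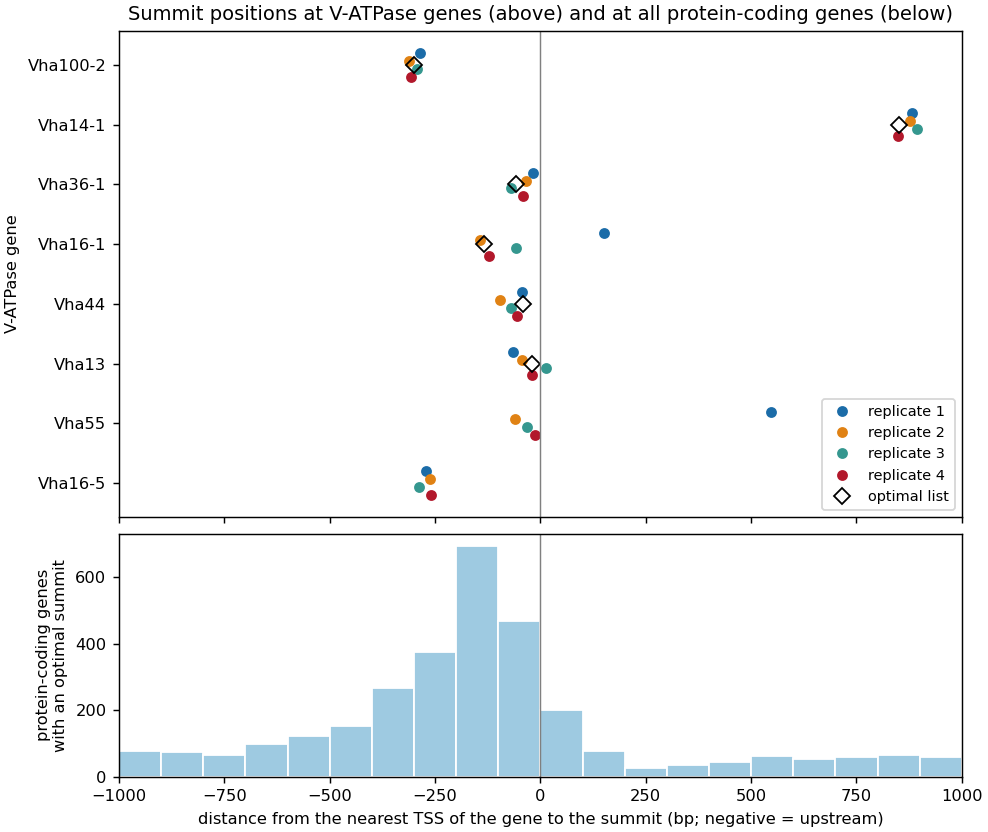
Distance (bp, negative is upstream) from the nearest TSS of the gene to its strongest summit. Above are the 8 V-ATPase genes with an optimal summit or a summit in the top list of at least 3 replicates. Below are all 3078 protein-coding genes with an optimal summit in bins of 100 bp. Circles are replicates and diamonds the optimal list; Vha14-1 alone lies past 800 bp downstream, and in replicate 1 the summits of Vha16-1 and Vha55 lie downstream.

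Gene structure moved with the classes. General genes had a median length of 3594 bp and restricted genes one of 1371 bp, beside 2164 bp for all protein-coding genes. More than 1 TSS was annotated for 5 of 13 general and 1 of 13 restricted genes. Another gene started within 1 kb of a TSS at 8 of 13 general and 2 of 13 restricted genes. Over all protein-coding genes, a summit was found at 11.1% of those with 1 TSS and no such neighbour and at 45.0% of those with several TSSs and a neighbour. Within genes with 1 TSS and a neighbour, 3 of 5 general and 0 of 2 restricted genes had a summit, beside 21.6% of all genes of that structure. Within genes with 1 TSS and no neighbour it was 0 of 3 general and 0 of 10 restricted genes. Most restricted genes thus had the structure with the lowest share, and the part of structure in the class difference was not tested.

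**Figure D4:**
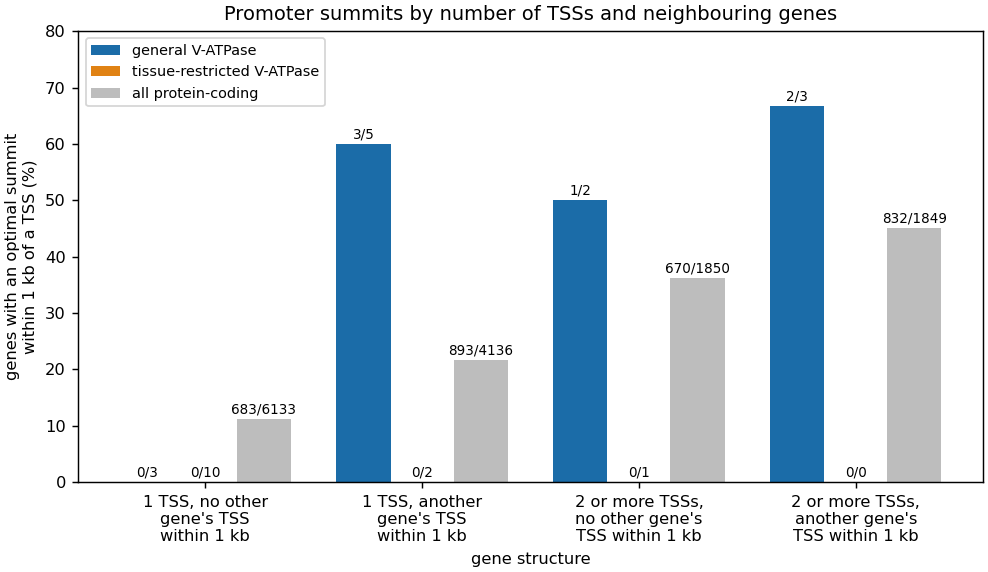
Share of genes (%) with an optimal summit within 1 kb of a TSS, split by the number of annotated TSSs and by whether another gene starts within 1 kb; labels give genes with a summit over genes in the bin. Among genes with 1 TSS and no neighbour, 0 of 3 general, 0 of 10 restricted and 11.1% of all protein-coding genes have a summit.

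Short motifs were then searched on both strands. AGGTCA is the core of sites bound by nuclear receptors, and the longer TAGGTCA, which contains it, is of the Rev-erb kind. CACGTG is the E-box, and the longer TCACGTGA, which contains it, is of the kind bound by Mitf, a known regulator of V-ATPase and lysosome genes. The others were TATCGATA, known as the DRE, and the GAGA-factor motif GAGAGAG. In 200 bp centred on the optimal summit, AGGTCA, there as part of TAGGTCA, was found at Vha14-1 alone of the 6 members. It was in 4.03% of all 8282 optimal windows, and the longer form in 1.05%. In 100 bp windows neither was found at a member. CACGTG, as TCACGTGA, was found at Vha44 alone, beside 1.67% and 0.0966% of optimal windows, and started at the base of the summit. TATCGATA and GAGAGAG were found at none of the 6, beside 1.49% and 3.67%.

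In 200 bp centred on a TSS, which does not use the peaks, CACGTG was found at 4 of 29 members (13.8%), beside 3.67% of all protein-coding genes. They were Vha68-2 (A), Vha55 (B), Vha44 (C) and Vha16-1 (c), all general. The longer TCACGTGA was found at Vha68-2, Vha44 and Vha16-1, 3 of 29 members, beside 18 of all 13968 protein-coding genes (0.129%). In 100 bp windows CACGTG was found at 1 of 29 members (3.45%), Vha44, beside 2.36% of all protein-coding genes. TCACGTGA was found there at Vha44 alone as well (3.45%), beside 0.0573%. The other genes in both counts thus rest on the wider window. The 4 genes with CACGTG have 2 to 5 annotated TSSs each, which gives them more windows than the average of 1.41. Over all 29 members the mean number of TSSs was 1.41 too, the same as over all protein-coding genes. The distance from the E-box to the nearest peak summit differed between the genes. It was 53 bp or less in each replicate at Vha44, and 52, 242, 156 and 221 bp in replicates 1 to 4 at Vha16-1. At Vha55 it was 263, 122, 94 and 74 bp in replicates 1 to 4, and at Vha68-2 it was 209 bp or more in each replicate. The other motifs were counted in the same 200 bp TSS windows. AGGTCA was found at 1 of 29 members (3.45%, beside 4.39% of all protein-coding genes) and TAGGTCA at none (beside 0.823%). TATCGATA was found at 1 (3.45%, beside 8.48%) and GAGAGAG at 3 (10.3%, beside 5.8%).
The E-boxes of Vha55 (chr3R:12627756-12627785, minus strand, in its 5′ UTR) and Vha68-2 (chr2L:12975292-12975321, plus strand, in an intron of its longer transcripts) are shown with CACGTG in capitals.
Vha55 E-box: gtcatgtgacggCACGTGacgtcacagcag
Vha68-2 E-box: tcaaagctctgtCACGTGaaacgaaagctc

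Other genes of the pump and the lysosome were taken from a list of 23. None of the 5 V-ATPase genes outside the naming rule had an optimal summit: VhaM9.7-a, VhaM9.7-b, VhaM9.7-c and VhaM9.7-d, which encode the small e subunit, and ATP6AP2, also known as VhaM8.9. In the replicates, VhaM9.7-a had ranks 5777, 10764 and 26421 in replicates 1, 3 and 4, and ATP6AP2 had rank 7230 in replicate 1. VhaM9.7-b had ranks 5918 and 3919 in replicates 1 and 4, VhaM9.7-c had ranks 4939, 8816 and 3750 in replicates 2 to 4, and VhaM9.7-d had no peak. No optimal summit was found at the assembly genes Rbcn-3A and Rbcn-3B or the regulator Mitf. The 5 genes of TOR signalling at the lysosome (RagA-B, RagC-D, mTor, Tsc1 and gig) had no optimal summit either. Outside the top lists, Rbcn-3A had ranks 11711, 11614, 15088 and 15051 in replicates 1 to 4, and Mitf 9974, 10422, 12232 and 14026. Rbcn-3B had ranks 14401 and 11461 in replicates 1 and 3. RagA-B and RagC-D had ranks 16429 and 23018 in replicate 3. Of 10 lysosome genes, 3 had an optimal summit. The cathepsins CtsL1 and CtsB had ranks 3514 and 4297 with summits 240 and 128 bp upstream, and Ppt1, a palmitoyl-protein thioesterase, had rank 3091 with its summit 3 bp downstream. CtsB stood in the top list of all 4 replicates. CtsL1 fell outside it in replicate 3 (rank 8714), and Ppt1 had no peak within 1 kb of a TSS in replicate 2. In all, 3 of the 23 listed genes had an optimal summit, beside 22.0% of all protein-coding genes.

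Beside 6 of 29 V-ATPase genes, an optimal summit stood at 3 of 15 genes of the mitochondrial ATP synthase, the other rotary ATPase, and at 12 of 31 Rab genes, which encode small GTPases of vesicle traffic. The share of the Rab genes was 38.7%. Both families were taken by symbol alone, starting with ATPsyn or being Rab followed by a digit. Any gene of either family with another name would be left out. Over the top lists of the replicates the mean number was 7.0 ± 0.816 for the V-ATPase genes, 3.0 ± 1.41 for ATP synthase genes and 12.2 ± 0.957 for Rab genes (SD, n = 4). The background was 22.0% of all protein-coding genes, and differences between families were not tested.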

How the data were processed

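Per the file headers, the authors called peaks against a control alignment, once per replicate and once on the 4 replicates pooled. The joint optimal list was thresholded by irreproducible discovery rate (IDR). Which aligner, peak caller, versions and IDR threshold were used is not given in the sources used here. In the deposited lists each peak has a signal score and −log10 of a q-value made by the authors. All 8282 optimal peaks shared 1 value of −log10 q (4.26), so peaks were ranked by score. The optimal peaks were the 8282 strongest of the pooled list. Per the labels, chromatin was sonicated, with a size range of 200 to 800 (unit not stated). Only dm6 lists were used, and every peak lay inside its chromosome in the dm6 reference.

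Each summit (start plus summit offset, 1-based) was given to every protein-coding gene of Ensembl release 115 with a TSS within 1 kb. Each gene took its highest-scoring summit. Counts are descriptions beside the share of all protein-coding genes, with no test, since there is 1 group and genes are not replicates. The error is the spread of 4 replicates, and nothing here pairs them. The limit for a count of 0 is 3 counts of the total, an approximation that is rough for small sets, and covers counting error only. Every member is named. Members, classes and lists were chosen with earlier results of these data known. The assignment of summits was tested on simulated data. Python 3.11.15, numpy 2.4.6, pandas 2.3.3 and matplotlib 3.10.9 were used.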

Additional observations from a re-analysis of the deposited data

Results flagged for a closer look

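Of 12 sets of 4 replicate values examined (ranks of members with a peak in every replicate, and counts of members), 1 held a replicate far from the others. The rank of Vha55 was 10841 in replicate 1, against 3184, 3577 and 4083 in replicates 2 to 4. The replicate 1 peak has another summit, 547 bp downstream of a TSS, while the others lie 13 to 61 bp upstream. This gap took up 0.883 of the range, beyond the 95% critical value of Dixon's test for 4 values. Chance alone flags about 1 set in 20.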

How the results depend on the processing

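The number of members with an optimal summit was 6 and fell outside 1.5 times that count under 4 alternatives. It was 3 when each summit was given to its nearest TSS (Vha13, Vha16-1 and Vha44, beside 17.3% of all genes), 3 with the 4141 strongest optimal peaks (13.5%), 3 when a peak had to be met over 50% of its length in the top lists of all 4 replicates (10.6%), and 11 with the whole pooled list (38.4%). The general count was 6, and 3 under each of the first 3 of these. The restricted count was 0, 2 with the whole pooled list (Vha16-5 and VhaAC45RP), and 1 (Vha16-5) with at least 3 of 4 replicate top lists, an alternative chosen after seeing the data. Windows of 500 bp and 2 kb, the gene body, overlap by 1 bp and the placing of the 3 genes with no class kept each count within 1.5 times. The mean count over replicates, 7.0, was 12.5 with whole lists (46.3% of all genes) and ranged between 6.67 and 7.33 when 1 replicate was left out. Single peaks near rank 8282 enter or leave the counts with these choices. No paired analysis was possible because all samples form 1 group.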
